A study of Mus musculus with 8 samples.

Results

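The mature miRNAs of the miR-23a/27a/24-2 and miR-23b/27b/24-1 clusters were followed in mouse embryonic stem cells, across 8 libraries of small RNA. Of the 1915 miRNAs listed in the deposited counts, 8 were taken: the 3p arms mmu-miR-23a-3p, mmu-miR-23b-3p, mmu-miR-27a-3p, mmu-miR-27b-3p and mmu-miR-24-3p, and the 5p arms mmu-miR-27a-5p, mmu-miR-27b-5p and mmu-miR-24-2-5p, written below without the species prefix. They were chosen by name with their counts in all 8 libraries known, and no threshold on a value was set. The differences below therefore describe these libraries and are not independent evidence for the choice of members. The lowest of the 8, miR-23b-3p, averaged 34.3 CPM (counts scaled to a common library size) over the libraries. The highest of the 3 arms of the same hairpins that are not on the list, miR-24-1-5p, averaged 3.41 CPM.

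The libraries form 4 groups of 2, all in E14 cells of 129/Ola background kept in serum and LIF. The induced AGO1 line is an Ago2 knockout line that carries an inducible AGO1 transgene and received doxycycline at 1 µg/mL. The uninduced AGO1 line is the same line without doxycycline. The Ago2 knockout lines 1 and 2 are not labelled with a transgene, and the wild type is E14. By label, both states of the AGO1 line thus lack Ago2 as the knockout lines do (Ago2-null below), and the line was derived from knockout line 1. The AGO1 line was kept in puromycin. The labels give 1 cell source for its 4 libraries. Whether A and B were grown as separate cultures is not stated, so the spread between them may be technical. The knockout pair is instead 2 lines. The p-values rest on a spread shared over the 4 groups, so they mix both kinds. The sources used here do not give the promoter of the transgene or how the knockout was made, and small RNA gives no reading of Ago2 or AGO1 themselves.

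AGO proteins hold a miRNA and bring it to its target RNAs, and AGO2 is the family member known for slicing targets in mammals. A miRNA hairpin is cut by Drosha and Dicer into a duplex of a 5p and a 3p arm, of which an AGO protein keeps 1 strand, the guide, while the other strand is usually lost. The miR-23a and miR-23b clusters are paralogs, each transcribed as a single primary RNA that holds a miR-23, a miR-27 and a miR-24 hairpin. The 3p arm is the usual guide of all these hairpins. miR-27 is known for restraining adipocyte differentiation and lipid metabolism genes, miR-23 for targeting glutaminase, and miR-24 for repressing cell cycle genes in differentiating cells.

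The sequences below, from RefSeq on GRCm38.p6, show which members can be told apart by their reads, with the seed (bases 2 to 8 from the 5′ end) in capitals. Of the 8 members, 7 had a mature sequence in that table. miR-23b-3p is named only.
miR-27a-3p: uUCACAGUggcuaaguuccgc
miR-27b-3p: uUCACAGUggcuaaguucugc
miR-23a-3p: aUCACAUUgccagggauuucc
miR-24-3p: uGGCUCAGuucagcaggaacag
miR-27a-5p: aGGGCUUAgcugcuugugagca
miR-27b-5p: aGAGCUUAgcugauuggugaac
miR-24-2-5p: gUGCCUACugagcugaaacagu
miR-24-1-5p: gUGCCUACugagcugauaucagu

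The 3p arms of miR-27a and miR-27b share their seed and differ by a single base, C19U (the base of miR-27a-3p, the position from its 5′ end, the base of miR-27b-3p). Their 5p arms have different seeds and differ at 8 of 22 positions when compared base by base from the 5′ end without gaps. In such a comparison a base gained or lost also puts later positions out of step, so these counts overstate the divergence of the copies. miR-24-3p has the same sequence in both clusters, so its counts cannot be assigned to either. In contrast, miR-24-2-5p and miR-24-1-5p differ at 5 of the 22 positions compared, again without gaps. How the authors treated reads that match more than 1 place, and how many mismatches they allowed, is not stated, so levels of miR-27a-3p and miR-27b-3p, and of the closely related miR-23a-3p and miR-23b-3p, are uncertain to that extent. Among 1679 mature miRNAs in the reference, the miR-24-3p seed occurs in 4 others, miR-5124b, miR-6369, miR-6410 and miR-6413. Those 4 had 0 counts in all 8 libraries.

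The miR-23a/27a/24-2 hairpins lie within 404 bases on the plus strand of chromosome 8, from 84208518 to 84208921 (GRCm38). GENCODE vM21 places no other gene over Mir23a or Mir27a, and Mir24-2 overlaps an exon of the lincRNA Gm26532. The miR-23b/27b/24-1 hairpins lie within 792 bases on the plus strand of chromosome 13, from 63300484 to 63301275, inside the protein-coding gene 2010111I01Rik of the same strand. Mir23b lies in an intron of that gene, while Mir27b and Mir24-1 overlap an annotated exon. All 3 also lie in an intron of Fancc, on the opposite strand. The miR-27 hairpins are shown because both of their arms were measured, with the 5p arm and then the 3p arm in capitals.
Mir27a: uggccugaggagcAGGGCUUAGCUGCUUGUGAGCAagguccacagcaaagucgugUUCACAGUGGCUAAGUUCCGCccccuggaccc
Mir27b: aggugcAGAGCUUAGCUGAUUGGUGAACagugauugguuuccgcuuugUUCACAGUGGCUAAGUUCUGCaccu

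Counts of mature miRNAs summed to 163467 to 1326638 per library, the lowest in knockout line 2 and the highest in induced A. Of the miRNAs listed, 475 passed edgeR's abundance filter and were tested, among them all 8 members. miR-23b-3p reached the filter's 11.9 CPM in 6 libraries, none of them uninduced, and the other members did so in all 8. Levels are CPM scaled with edgeR's TMM factors, given as mean ± SD (n = 2). Changes are log2 fold changes ± SE from edgeR's quasi-likelihood test with Benjamini-Hochberg adjustment over the 475, and a call is an adjusted p under 0.05. All are relative to the other miRNAs, and fewer cells of a type cannot be told apart from less RNA per cell. Between the 2 libraries of a group the Spearman correlation was 0.902 for the knockout lines and 0.973 to 0.985 for the other groups. The 12 listed miRNAs of pluripotent cells, mostly miR-295-3p, summed to at least 218589 CPM in every library. Those of miR-302 and miR-367 had only 1 to 159 counts per library. Of the markers of other cells, miR-223-3p and miR-451a (blood), miR-214-3p (fibroblasts) and 3 of the 4 for muscle had 0 counts in all libraries. miR-150-5p had the most counts of the 7 blood markers in every library but knockout 2, where miR-142a-5p had 646 and miR-150-5p 516. Their summed level was 3740.5 to 3898 CPM in the induced line, 6241 to 6767 CPM in the uninduced line, 5719 to 6419.9 CPM in the knockout lines and 1893 to 1919 CPM in wild type. The 2 endothelial markers, the arms of miR-126a, summed to 1411 to 1528 CPM in the induced line, 1303 to 1375 CPM in the uninduced line, 921 to 1078 CPM in the knockout lines and 2087 to 2118 CPM in wild type. The 9 fibroblast markers, mostly miR-22-3p, summed to 69109 to 73024 CPM in the induced line, 58157 to 62198 CPM in the uninduced line, 41347 to 41570.1 CPM in the knockout lines and 44458 to 44969 CPM in wild type. Within this list miR-143-3p had another pattern. It had 2270 and 1787 counts in induced A and B, and 189 and 88 in uninduced A and B. Knockout 1 and 2 had 141 and 69, and wild type A and B 2648 and 4101. For knockout over wild type, 3 of 4 tested blood markers were called as higher and 0 as lower. Of 2 endothelial markers 1 was called as lower and 0 as higher, and of 7 tested fibroblast markers likewise 1 and 0. Of 12 pluripotent markers 3 were called as higher and 3 as lower, beside 25.5% and 32.2% of all tested miRNAs. For uninduced over wild type, 3 of 7 fibroblast markers were called as higher and 1 as lower, beside 25.9% and 33.3%. The blood marker miR-155-5p had 48 and 42 counts in wild type A and B. Knockout 1 and 2, with lower totals, had 6 and 6. The part of these markers in the results was not tested.

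The 8 members took a smaller share of the library in all Ago2-null groups. They held 1.03 and 0.898% of counts in induced A and B, 1.19 and 1.04% in uninduced A and B, 1.79 and 1.60% in knockout 1 and 2, and 2.74 and 2.46% in wild type A and B. No library of the 3 Ago2-null groups reached the wild type share. Within this sum miR-27b-3p made up 83.2 to 91.2%, so the share mostly reads that 1 miRNA.

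miR-27b-3p, the main product of the miR-23b cluster, ranked 17th of the listed miRNAs by mean CPM. mmu-miR-27b-3p stood at 10285 and 8735 CPM in induced A and B, 9924 and 8398 CPM in uninduced A and B, 14026 and 10968 CPM in knockout 1 and 2, and 28153 and 22436 CPM in wild type A and B. The 6 Ago2-null libraries all lay below both wild type libraries. In the order of levels the knockout lines (12497 ± 2162 CPM) came next after wild type (25295 ± 4042 CPM), followed by the induced line (9509.9 ± 1096 CPM) and the uninduced line (9161 ± 1079 CPM). Of these neighbours, neither the induced line and the knockout (edgeR adjusted p = 0.142) nor the induced and the uninduced line (edgeR adjusted p = 0.870) were told apart by the test.

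miR-27a-3p, its near twin from the miR-23a cluster, followed at a far lower level. mmu-miR-27a-3p had 745 and 689.7 CPM in induced A and B, 915 and 843 CPM in the uninduced line, 1058 and 840.2 CPM in knockout 1 and 2, and 1623 and 1362 CPM in wild type A and B. Wild type again lay above all other libraries, and no neighbouring pair among the 3 Ago2-null groups was called.

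mmu-miR-24-3p, made by both clusters, had 110.4 and 73.8 CPM in induced A and B, 38.6 and 39.7 CPM in the uninduced line, 62.2 and 35.2 CPM in knockout 1 and 2, and 224 and 206 CPM in wild type A and B. Its induced libraries stood between wild type and the other Ago2-null libraries, with no overlap. Knockout line 2 rests on 7 counts.

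miR-23a-3p had 47.1 and 48.8 CPM in induced A and B, 28.0 and 56.2 CPM in the uninduced line, 42.3 and 70.4 CPM in knockout 1 and 2, and 158 and 184 CPM in wild type A and B. The 3 Ago2-null groups overlapped each other and all lay below wild type. miR-23b-3p, the scarcest member, had 24 and 23 counts in induced A and B, 3 and 3 in the uninduced line, 5 and 4 in knockout 1 and 2, and 94 and 81 in wild type A and B. These are 20.5 and 22.9 CPM in the induced line, 3.99 and 9.92 CPM in the uninduced line, 12.4 and 20.1 CPM in the knockout lines, and 112 and 72.9 CPM in wild type. The induced libraries were thus above the uninduced ones but below wild type. At 3 counts, the upper limit for a miRNA with 0 counts, the level is 2.57 to 15.1 CPM by library, so the uninduced values of miR-23b-3p stand at that floor.

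The arms miR-27b-5p and miR-27a-5p, unlike the 3p arms, were not highest in wild type. miR-27b-5p had 200.2 and 141 CPM in induced A and B, 366 and 318 CPM in the uninduced line, 548 and 896 CPM in knockout 1 and 2, and 237 and 127 CPM in wild type A and B. The knockout lines were highest, the uninduced line came next, and the induced line overlapped wild type. miR-27a-5p had 102 and 116 CPM in induced A and B, 236 and 235 CPM in the uninduced line, 154 and 201 CPM in knockout 1 and 2, and 127 and 87.3 CPM in wild type. Here the uninduced line was highest, and the induced line again overlapped wild type.

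miR-24-2-5p, the only 5p arm of the miR-24 hairpins with more than a few counts, had 199 and 177 CPM in induced A and B, 194 and 172 CPM in the uninduced line, 82.2 and 156 CPM in knockout 1 and 2, and 236 and 257 CPM in wild type. It was highest in wild type, as the 3p arms were, and lowest in the knockout lines, which differed from each other.

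**Figure D1:**
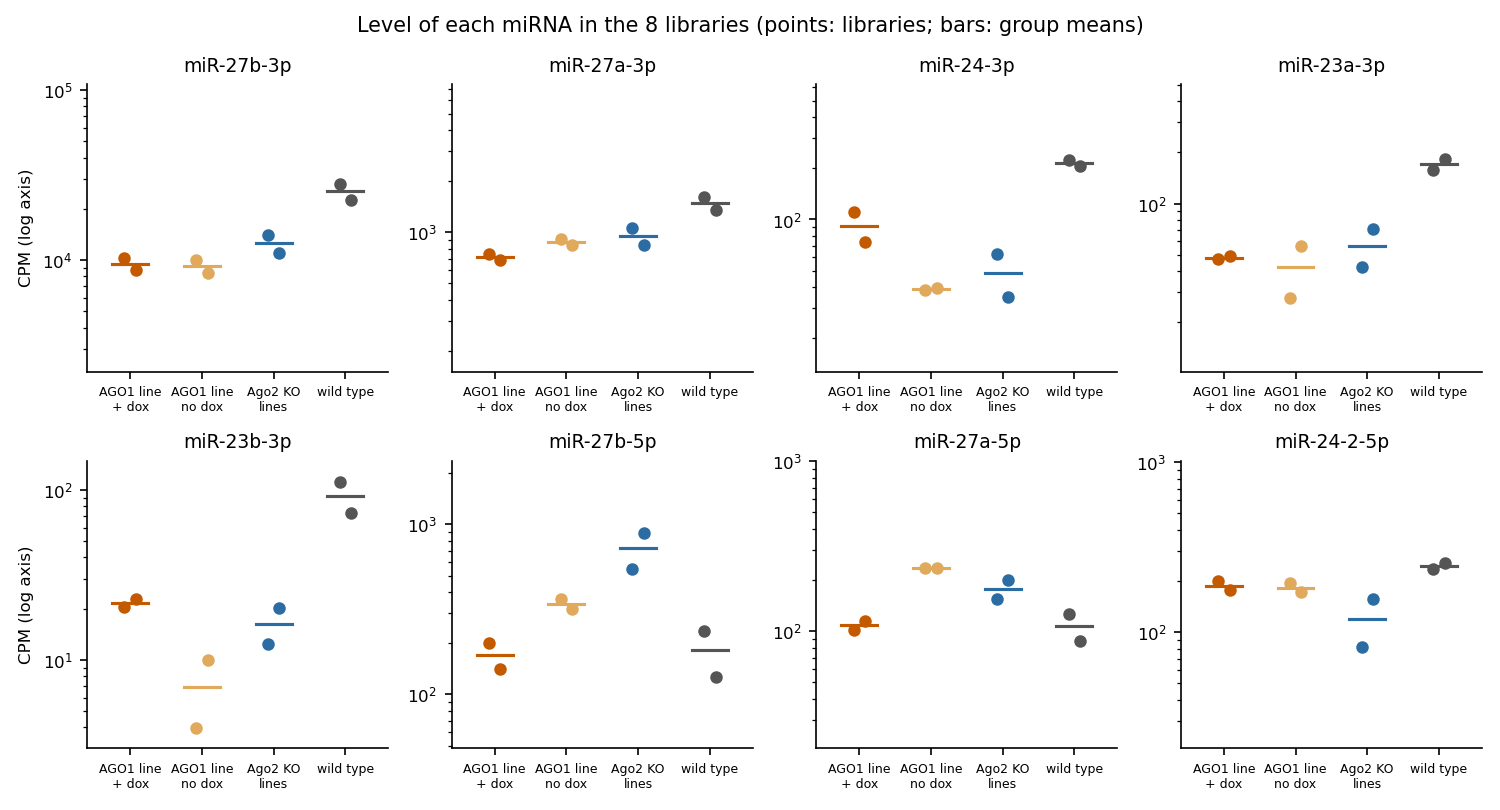
Level of each of the 8 miRNAs in CPM (log axis; every panel spans the same number of log units) in the induced AGO1 line, the uninduced AGO1 line, the Ago2 knockout lines and wild type. Points are libraries and bars are group means (n = 2). The 5 panels of 3p arms have both wild type points on top, such as 28153 and 22436 CPM for miR-27b-3p, whereas miR-27b-5p is highest in the knockout lines, at 548 and 896 CPM.

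Knockout over wild type sets 2 Ago2 knockout lines against E14. Loss of AGO2 and other differences between these lines and E14 cannot be told apart. All 5 of the 3p arms fell, with log2 fold changes between -2.58 and -0.65 and a median of -1.67, beside a median of -0.13 over all 475 miRNAs. Of the 3 5p arms 1 fell (miR-24-2-5p), 1 rose (miR-27b-5p) and 1 was not called (miR-27a-5p). In this comparison 57.7% of all tested miRNAs were called, 32.2% as lower and 25.5% as higher, so being called sets no member apart. The groups did not overlap for any member, 6 below and 2 above wild type, as was so for 43.2% (below) and 34.3% (above) of all tested miRNAs. Without TMM factors the median of all miRNAs moved to 0.16, and calls as higher made up 58.3% of all calls in place of 44.2%.

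miR-27b-3p fell to 12497 ± 2162 CPM in the knockout, against 25295 ± 4042 CPM in wild type (-1.02 ± 0.19, edgeR adjusted p = 0.00163). miR-24-3p fell to 48.7 ± 19.1 CPM in the knockout, against 215 ± 13.0 CPM in wild type (-2.07 ± 0.36, edgeR adjusted p = 0.00109). The miR-23 arms moved likewise: miR-23b-3p fell by 2.58 on the log2 scale (SE 0.49, edgeR adjusted p = 0.0017), and miR-23a-3p fell by 1.67 (SE 0.39, edgeR adjusted p = 0.00529). For miR-23b-3p the knockout has 9 counts in all, a ratio of 0.167 to wild type with a 95% counting interval of 0.0753 to 0.325. The opposite strand of the most abundant duplex, miR-27b-5p, rose to 722 ± 246 CPM in the knockout, against 182 ± 78.2 CPM in wild type (1.98 ± 0.35, edgeR adjusted p = 0.00124).

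The other 3 members had larger p-values. miR-27a-3p fell by 0.65 (SE 0.20, edgeR adjusted p = 0.0181), and miR-24-2-5p fell by 1.10 (SE 0.32, edgeR adjusted p = 0.0152). For miR-27a-5p the log2 fold change was 0.72 ± 0.30 (edgeR adjusted p = 0.0638). The call of miR-27a-3p was lost without TMM factors (-0.34, edgeR adjusted p = 0.0912), with only the 2 groups in the fit (-0.49, edgeR adjusted p = 0.0825) and, with 1 library left out, without wild type A (edgeR adjusted p = 0.275), knockout 2 (0.112), induced A (0.108) or B (0.106), and uninduced A (0.0736) or B (0.0692). That of miR-24-2-5p was lost without TMM factors (edgeR adjusted p = 0.0686), with only the 2 groups in the fit (0.102), after down-sampling to the lowest total (0.0718), and without knockout 1 (0.120), wild type A (0.0806) or B (0.0572), or induced A (0.0527) or B (0.0603). miR-27a-5p, in contrast, was called as higher without knockout 1 (0.92, edgeR adjusted p = 0.0294) or wild type A (1.19, edgeR adjusted p = 0.0289), without TMM factors (1.04, edgeR adjusted p = 0.0132), with DESeq2 size factors (0.0393) and among miRNAs of at least 20 CPM (0.0495).

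**Figure D2:**
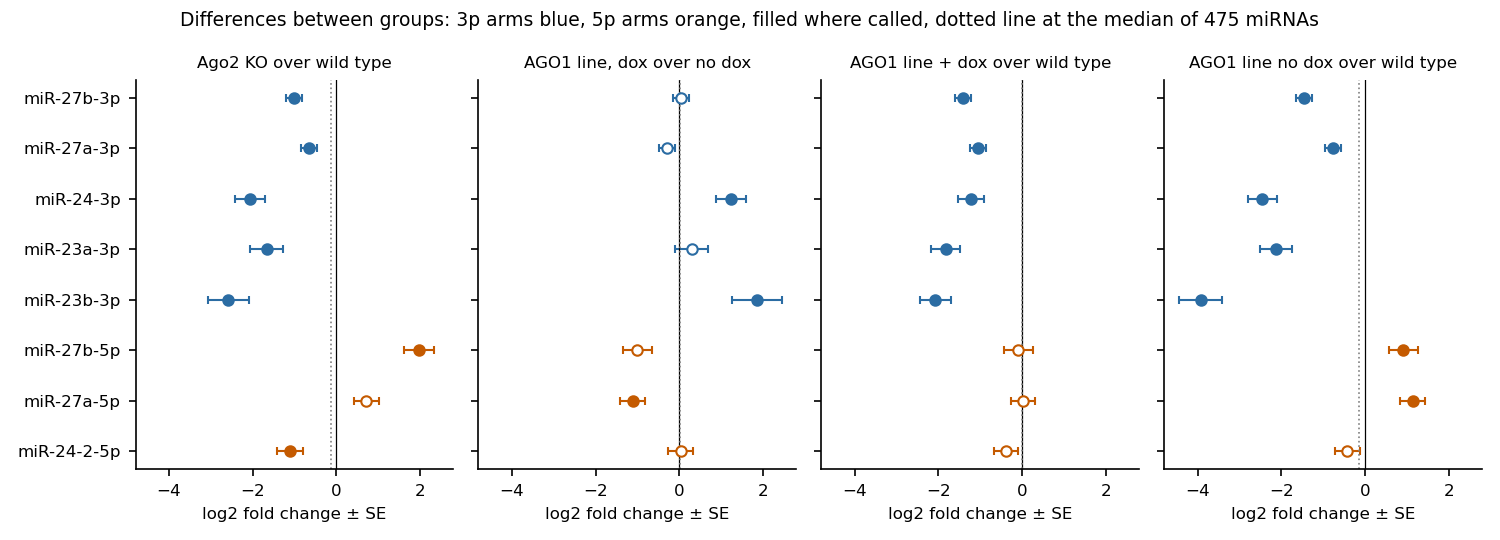
Log2 fold change ± SE (edgeR) of each member for knockout over wild type, induced over uninduced AGO1 line, induced line over wild type and uninduced line over wild type. The 3p arms are blue and the 5p arms orange, points are filled where the adjusted p is under 0.05, and the dotted line is the median of the 475 tested miRNAs. The 3p arms are filled and left of 0 in the 3 panels against wild type, while miR-27b-5p reaches 1.98 in the knockout.

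Doxycycline against no doxycycline addresses AGO1 in cells without AGO2. No library without the transgene received doxycycline, so doxycycline itself and AGO1 cannot be told apart. Of the 8 members 2 rose, 1 fell and 5 were not called, where 28.6% of all tested miRNAs were called, 21.1% as higher and 7.58% as lower. Both libraries lay above both uninduced ones for 2 members, beside 38.3% of all tested miRNAs, and below them for 3, beside 34.1%. miR-24-3p rose to 92.1 ± 25.9 CPM with doxycycline, against 39.2 ± 0.760 CPM without (1.24 ± 0.36, edgeR adjusted p = 0.026). miR-23b-3p rose to 21.7 ± 1.69 CPM with doxycycline, against 6.96 ± 4.19 CPM without (1.86 ± 0.59, edgeR adjusted p = 0.0388). Its counts were 47 with and 6 without doxycycline, a ratio of 3.80 with a 95% counting interval of 1.62 to 10.9. miR-27a-5p fell to 109 ± 9.76 CPM with doxycycline, against 235 ± 0.602 CPM without (-1.11 ± 0.29, edgeR adjusted p = 0.0177).

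The most abundant member, miR-27b-3p, had a log2 fold change of 0.05 ± 0.19 with doxycycline (edgeR adjusted p = 0.870). miR-27a-3p stood at -0.29 ± 0.20 (edgeR adjusted p = 0.283), miR-23a-3p at 0.30 ± 0.40 (edgeR adjusted p = 0.612) and miR-24-2-5p at 0.03 ± 0.30 (edgeR adjusted p = 0.958). The signs of miR-27b-3p and miR-24-2-5p turned with DESeq2 size factors (-0.0187 and -0.0376) and without TMM factors (-0.152 and -0.171). miR-27b-5p had 170.4 ± 42.2 CPM with doxycycline and 342 ± 34.4 CPM without, a log2 fold change of -1.01 ± 0.35 just short of the threshold (edgeR adjusted p = 0.0526). Of 16 alternatives 9 called it and 7 did not, with adjusted p-values from 7.91e-05 to 0.333 and log2 fold changes from -1.26 to -0.76. It was called with only the 2 groups in the fit (edgeR adjusted p = 0.000839), with DESeq2 size factors (0.0423), without TMM factors (0.0266), without a filter (0.0163), with a replicate block (0.0485), and without knockout 1 (0.00014), knockout 2 (7.91e-05) or wild type B (0.0401). DESeq2 called it too (DESeq2 adjusted p = 0.0202). For miR-27b-5p the edgeR adjusted p was 0.333 without induced B, 0.288 without uninduced A, 0.115 after down-sampling and 0.0953 without induced A.

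These 3 doxycycline calls rest on all 4 libraries of the AGO1 line. Without induced A 0 were kept, without induced B only that of miR-24-3p, without uninduced A 0, and without uninduced B only that of miR-27a-5p. Over these 4 fits the edgeR adjusted p of miR-24-3p where lost was 0.151 to 0.199, that of miR-27a-5p 0.110 to 0.180, and that of miR-23b-3p 0.0566 to 0.339. All 3 were lost after down-sampling to the lowest total, with edgeR adjusted p-values of 0.0954 to 0.264. With each of the 8 libraries left out the log2 fold changes kept their sign, from 0.97 to 1.5 for miR-24-3p, from 1.24 to 2.24 for miR-23b-3p and from -1.28 to -0.97 for miR-27a-5p. Without TMM factors calls as higher made up 56.5% of all doxycycline calls in place of 73.5%. miR-23b-3p was then just short of the threshold (edgeR adjusted p = 0.0504), and DESeq2 did not call it (DESeq2 adjusted p = 0.129). miR-27a-3p was called as lower without TMM factors (-0.50, edgeR adjusted p = 0.0415).

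Against wild type, the induced line had all 5 of the 3p arms lower, with log2 fold changes from -2.07 to -1.06, while 0 of the 5p arms were called. Of all tested miRNAs 38.9% were called in this comparison, 19.8% as lower and 19.2% as higher. Both induced libraries lay below both wild type ones for 6 members and above them for 0, beside 36% and 40% of all tested miRNAs. miR-27b-3p was at -1.41 ± 0.19 (edgeR adjusted p = 0.000638), miR-23b-3p at -2.07 ± 0.37 (edgeR adjusted p = 0.00221) and miR-24-3p at -1.22 ± 0.31 (edgeR adjusted p = 0.0123). The 5p arms had log2 fold changes of 0.02 ± 0.29 for miR-27a-5p, -0.09 ± 0.34 for miR-27b-5p and -0.39 ± 0.29 for miR-24-2-5p. Calls were lost for miR-24-3p without induced B (-0.83, edgeR adjusted p = 0.197) or wild type A (-0.99, edgeR adjusted p = 0.0882) and after down-sampling to the lowest total (-0.73, edgeR adjusted p = 0.198). For miR-27a-3p they were lost without induced B (edgeR adjusted p = 0.0735) or wild type A (edgeR adjusted p = 0.0503).

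The uninduced line against wild type had all 5 of the 3p arms lower, from -3.93 to -0.76, and miR-27a-5p (1.14 ± 0.29, edgeR adjusted p = 0.00711) and miR-27b-5p (0.92 ± 0.35, edgeR adjusted p = 0.0422) higher. Of all tested miRNAs 59.2% were called, 33.3% as lower and 25.9% as higher. The groups did not overlap for any member, 6 below and 2 above wild type, beside 44.4% and 37.7% of all tested miRNAs. miR-24-3p stood at -2.46 ± 0.35 (edgeR adjusted p = 0.000239) and miR-27b-3p at -1.46 ± 0.19 (edgeR adjusted p = 0.000142). For miR-23b-3p the ratio of counts to wild type was 0.0636, with a 95% counting interval of 0.023 to 0.141. miR-24-2-5p was not called (-0.42 ± 0.30, edgeR adjusted p = 0.233). Calls were lost for miR-27b-5p without uninduced A (0.75, edgeR adjusted p = 0.185) or wild type B (0.51, edgeR adjusted p = 0.271), for miR-27a-5p without uninduced A (1.07, edgeR adjusted p = 0.0505) or wild type B (0.87, edgeR adjusted p = 0.0653), and for miR-27a-3p without uninduced B (-0.49, edgeR adjusted p = 0.212) or wild type A (-0.49, edgeR adjusted p = 0.118). Down-sampling lost that of miR-27b-5p (edgeR adjusted p = 0.0723). These comparisons and that of the knockout share their wild type libraries.

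The uninduced line against the knockout lines gave 0 calls by edgeR among the 8 members and 0 (0%) among all 475, with 2 members and 72 miRNAs at an unadjusted p under 0.05. DESeq2 called 15 miRNAs, miR-27b-5p among them (-1.09, DESeq2 adjusted p = 0.0494). The groups did not overlap for 5 members, 3 below the knockout and 2 above, beside 22.5% and 22.1% of all tested miRNAs. For miR-27b-5p edgeR gave -1.06 ± 0.35 on the log2 scale (edgeR adjusted p = 0.211). It was called without knockout 1 (-1.37, edgeR adjusted p = 3.56e-05) and in the absence of an abundance filter (edgeR adjusted p = 0.0331). Without knockout 2, miR-27b-3p (-0.64, edgeR adjusted p = 0.0366) and miR-24-2-5p (1.14, edgeR adjusted p = 0.0339) were called instead. The induced line against the knockout lines had 1 member called, miR-27b-5p (-2.07 ± 0.35, edgeR adjusted p = 0.0016), where 29.9% of all tested miRNAs were called, 10.7% as lower and 19.2% as higher. Both induced libraries lay below both knockout ones for 4 members and above them for 3, beside 30.5% and 36.6% of all tested miRNAs. Without TMM factors calls as higher made up 38.1% of all calls in that comparison in place of 64.1%, and 4 members were called as lower, the 2 arms of miR-27a and the 2 of miR-27b. With DESeq2 size factors the 3p arms of both were called as lower besides miR-27b-5p (edgeR adjusted p = 0.0495 for miR-27a-3p and 0.0438 for miR-27b-3p). miR-24-3p (0.85 ± 0.37, edgeR adjusted p = 0.103) was called as higher without knockout 1 (1.42, edgeR adjusted p = 0.0370). Without knockout 2, miR-24-2-5p (1.18, edgeR adjusted p = 0.00484) and miR-27b-3p (-0.58, edgeR adjusted p = 0.0230) were called.

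The ratio of 5p to 3p counts within a library needs no scaling between libraries. For miR-27b the 5p arm made up 1.91 and 1.58% of both arms in induced A and B, 3.56 and 3.64% in uninduced A and B, 3.76 and 7.55% in knockout 1 and 2, and 0.836 and 0.562% in wild type A and B. For miR-27a it made up 12 and 14.4% in the induced line, 20.5 and 21.8% in the uninduced line, 12.7 and 19.3% in the knockout lines, and 7.26 and 6.02% in wild type. In both hairpins every Ago2-null library had a higher 5p share than either wild type library, and the induced libraries lay below the uninduced ones. How many other hairpins separate in this way was not counted. For single levels such separation was common. Both knockout libraries lay above both wild type ones for 34.3% of all tested miRNAs, and both induced below both uninduced ones for 34.1%. The exact 95% binomial interval of the wild type shares ran from 0.473 to 0.960% for miR-27b and from 4.91 to 8.70% for miR-27a, and covers counting error only: the reads carry no molecular identifiers and so are not independent molecules.

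In a fit of both arms over 141 hairpins, with the library as a term, the 5p to 3p ratio was higher in the knockout than in wild type by 3.01 ± 0.33 on the log2 scale for miR-27b (edgeR adjusted p = 8.66e-06) and by 1.35 ± 0.28 for miR-27a (edgeR adjusted p = 0.00144). Of the 141 hairpins 41.1% were called, 19.1% as higher and 22.0% as lower. Against wild type the ratio was also higher in the uninduced line, by 2.43 ± 0.33 for miR-27b (edgeR adjusted p = 3.85e-05) and 1.91 ± 0.27 for miR-27a (edgeR adjusted p = 4.36e-05), where 48.2% of hairpins were called, 22.7% as higher and 25.5% as lower. In the induced line it was higher than in wild type by 1.36 ± 0.33 (edgeR adjusted p = 0.00337) and 1.09 ± 0.26 (edgeR adjusted p = 0.00327), where 44.7% were called, 21.3% as higher and 23.4% as lower. Without induced A the miR-27b call against wild type was lost (1.21, edgeR adjusted p = 0.0771).

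Between the induced and the uninduced line the log2 difference in arm ratio was -1.07 ± 0.33 for miR-27b and -0.82 ± 0.26 for miR-27a. Neither passed the threshold (edgeR adjusted p = 0.0694 for both), in a comparison where 5.67% of hairpins were called, 3.55% as lower and 2.13% as higher. Over 10 alternatives the adjusted p ran from 0.0112 to 0.277 for miR-27b and from 0.0205 to 0.347 for miR-27a. Both were called without knockout 1 (edgeR adjusted p = 0.0112 for miR-27b and 0.0205 for miR-27a), knockout 2 (0.0137 and 0.0207) or wild type A (0.0182 and 0.0475), and miR-27b also without wild type B (0.0327). Neither was called without any 1 of the 4 libraries of the AGO1 line, or by limma. Induced line over knockout lines gave -1.66 ± 0.33 for miR-27b (edgeR adjusted p = 0.00446; 12.1% of hairpins called, 7.09% as lower and 4.96% as higher) and -0.26 ± 0.28 for miR-27a (edgeR adjusted p = 0.634). That miR-27b call was lost without induced A (edgeR adjusted p = 0.057) or B (0.0947). The uninduced line over the knockout lines gave -0.59 ± 0.33 for miR-27b (edgeR adjusted p = 0.666) and 0.56 ± 0.28 for miR-27a (edgeR adjusted p = 0.614), where 0.709% of hairpins were called as lower.

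For the miR-24-2 hairpin the arm ratio is not defined, since miR-24-3p also comes from Mir24-1. The counts of miR-24-2-5p over miR-24-3p were 1.81 and 2.41 in induced A and B, 5.03 and 4.33 in uninduced A and B, 1.32 and 4.43 in knockout 1 and 2, and 1.05 and 1.25 in wild type A and B. miR-24-3p is the usual guide strand, yet it had fewer counts than miR-24-2-5p in all 8 libraries. Wild type was closest to equal counts, and the knockout lines differed from each other by nearly the range of all libraries.

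**Figure D3:**
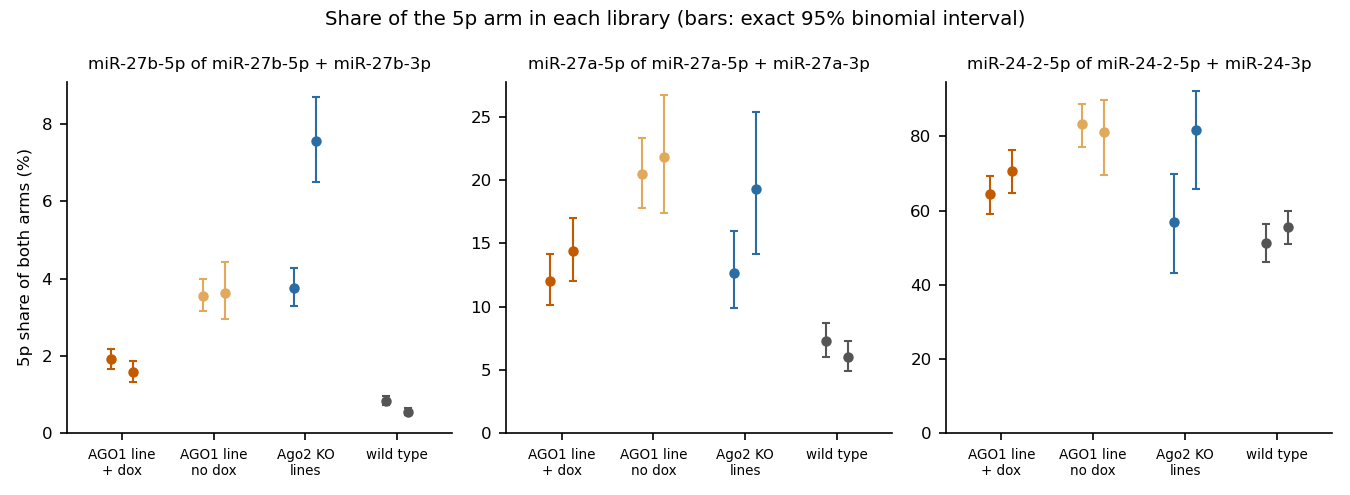
Share of the 5p arm (%) among the counts of both arms for miR-27b, miR-27a and miR-24-2 (the last beside miR-24-3p of both genes), with 1 point per library and exact 95% binomial intervals. Wild type has the lowest share in each panel, for example 0.836 and 0.562% for miR-27b, where the induced line has 1.91 and 1.58% and the uninduced line 3.56 and 3.64%.

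The balance of counts between the paralogous clusters was read from pairs of related arms. miR-27a-3p made up 6.76 and 7.32% of the summed miR-27a-3p and miR-27b-3p in induced A and B, 8.44 and 9.13% in the uninduced line, 7.02 and 7.12% in knockout 1 and 2, and 5.45 and 5.72% in wild type. All Ago2-null libraries had a larger miR-27a part than wild type, and the uninduced line the largest. These 3p arms differ by a single base and how their reads were assigned is not stated, so this part is uncertain to that extent. How many other pairs of arms separate in this way was not counted. The 5p arms gave a far more even balance and another order, with miR-27a-5p at 33.7 and 45.1% of both 5p arms in the induced line, 39.2 and 42.5% in the uninduced line, 22.0 and 18.3% in the knockout lines, and 34.9 and 40.8% in wild type. Here it was the knockout lines that stood apart, with both libraries below the other 6. miR-23a-3p over miR-23b-3p was 2.29 and 2.13 in the induced line, 7 and 5.67 in the uninduced line, 3.40 and 3.50 in the knockout lines, and 1.41 and 2.52 in wild type, with 3 to 5 counts of miR-23b-3p behind each uninduced or knockout value. A 2-sided exact permutation test of 2 libraries against 2 cannot go below p = 0.333, so the differences in balance were not tested further.

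**Figure D4:**
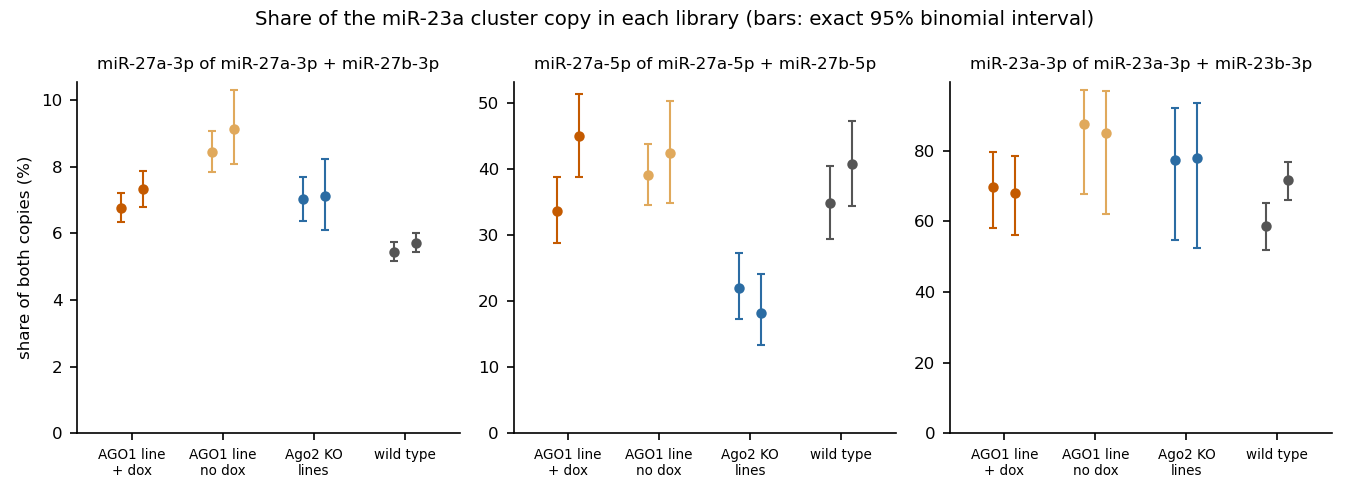
Share (%) of the miR-23a cluster copy among the summed counts of paired arms, for miR-27-3p, miR-27-5p and miR-23-3p, with 1 point per library and exact 95% binomial intervals. The miR-27-3p panel has wild type lowest at 5.45 and 5.72%, and the miR-27-5p panel has the knockout lines lowest at 22.0 and 18.3%.

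Members of 1 primary transcript differed widely in counts in every group. How evenly the libraries captured different sequences was not tested. For each count of miR-23b-3p, miR-27b-3p had 501 and 381 counts in induced A and B, 2484 and 846 in uninduced A and B, 1127 and 545 in knockout 1 and 2, and 252 and 308 in wild type A and B. All Ago2-null libraries were above wild type and the induced ones were the lowest of them, though the uninduced and knockout values rest on 3 to 5 counts of miR-23b-3p. For each count of miR-23a-3p, miR-27a-3p had 15.8 and 14.1 counts in induced A and B, 32.7 and 15 in uninduced A and B, 25 and 11.9 in knockout 1 and 2, and 10.3 and 7.42 in wild type A and B. Again all Ago2-null libraries were above wild type, while the 3 groups without Ago2 overlapped each other.

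The remaining arms of these hairpins were near the floor. miR-23a-5p had 0 to 7 counts per library, miR-23b-5p 0 to 2 and miR-24-1-5p 0 to 6, and none passed the filter. On the strand opposite to the miR-24 hairpins lies miR-3074, whose 5p arm overlaps miR-24-3p by 20 bases at both loci. miR-3074-5p had 21 and 6 counts in induced A and B, 3 and 1 in the uninduced line, 0 and 1 in knockout 1 and 2, and 28 and 41 in wild type A and B. It passed the filter through wild type and 1 induced library alone, so a call of it as lower in the knockout had to follow and is not counted here. The ratio of its counts in the knockout to wild type was 0.0472 (95% counting interval 0.00118 to 0.272). miR-3074-1-3p had 17 and miR-3074-2-3p 5 counts over all 8 libraries. Whether the authors' counting used the strand is not stated.

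Over the 8 libraries the level (log2 of CPM + 1) of miR-27b-3p was most like that of miR-93-5p, miR-106a-5p and miR-20b-5p among 217 other miRNAs of at least 100 CPM, with Pearson's r of 0.979, 0.977 and 0.953. For miR-24-3p the nearest were miR-369-3p (r = 0.985), let-7f-5p (0.984) and miR-17-5p (0.979). For miR-23b-3p they were let-7g-5p (0.967), miR-128-3p (0.944) and miR-363-3p (0.942), for miR-23a-3p miR-18b-5p (0.958), miR-181c-5p (0.934) and miR-532-5p (0.925), and for miR-27a-3p miR-20b-5p (0.956), miR-148a-3p (0.951) and miR-130b-3p (0.949). Among the members, miR-27a-3p and miR-27b-3p had r = 0.954, miR-23a-3p and miR-23b-3p 0.927, and miR-24-3p and miR-27a-5p -0.848. These correlations describe 8 libraries that share 4 groups and their depth.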

How the data were processed

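Small RNA of 8 libraries was prepared with an Illumina TruSeq kit, per the labels' protocols. The authors deposited raw whole-number counts for each mature miRNA. Per the submitters' processing notes, Bowtie (no version given) and mm10 (GRCm38) were used. How adapters were trimmed and which miRNA release was counted is not given in the sources used here. Of the table's 2 header lines, which differ in 1 wild type name, the first was used.

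Totals were 163467 to 1326638 counts. Tests used R 4.3.3 and edgeR 4.0.16 in 1 fit of 4 groups (4 residual degrees of freedom), with filterByExpr (475 of 1915 miRNAs, of which 901 had no count) and TMM factors. The SE was taken from the fold change and F as |log2 fold change| / √F. The arm ratio was fitted over hairpins with a mean of at least 5 counts per arm. Both fits were tested on simulated data. Replicates differed by more than sampling noise in every group (chi-square test of counts).

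Members, lists, named miRNAs and tests were chosen with earlier results of these data known. Named besides the members are the other arms of the same hairpins, miR-3074, miRNAs sharing a seed, and the 3 miRNAs most correlated with each 3p arm. Alternatives were DESeq2 size factors, library totals, the DESeq2 1.42.0 Wald test, other filters, only the 2 groups, random down-sampling of each library to the lowest total, limma 3.58.1 for arm ratios, each library left out, and a replicate block.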

Additional observations from a re-analysis of the deposited data

How the results depend on the processing

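Of 48 member differences 19, and of 12 arm ratio differences 7, kept their direction and their side of the threshold under all alternatives that gave a value. For uninduced over knockout, DESeq2 gave no adjusted p for miR-23a-3p, miR-23b-3p and miR-24-3p, which was taken as not called. In that comparison miR-23b-3p was also not tested with only the 2 groups in the fit. Changes of sign befell only differences that neither the report nor the alternative called. For induced over uninduced, miR-27b-3p was -0.0187 with DESeq2 size factors, -0.152 without TMM factors and -0.0193 with DESeq2, miR-24-2-5p -0.0376, -0.171 and -0.0386 under the same settings, and miR-23a-3p -0.363 after down-sampling. For induced over wild type, miR-27a-5p was -0.044 without TMM factors and miR-27b-5p 0.00805 with only the 2 groups. Without TMM factors the median of all miRNAs for knockout over wild type also changed sign, to 0.164, and calls as higher became the majority there (58.3%) and the minority for induced over knockout (38.1%). Whether the A and B letters pair the libraries is not stated. Deviations of the A libraries from their group means correlated at 0.197 between the induced and the uninduced line. The correlation was -0.00722 between the induced line and wild type, and 0.0526 between the uninduced line and wild type. These values cannot decide whether the libraries are paired. With a replicate block, 107 miRNAs were called as higher and 135 as lower for knockout over wild type, 7 members among them, and 87 and 25 for induced over uninduced, 3 members among them. For induced over uninduced the block lost miR-23b-3p (edgeR adjusted p = 0.0631) and gained miR-27b-5p (edgeR adjusted p = 0.0485).

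After down-sampling to the lowest total, with 324 miRNAs tested in place of 475, called miRNAs numbered 162 for knockout over wild type, 68 for induced over uninduced (members 0), 97 for induced over wild type and 166 for uninduced over wild type. For uninduced over knockout, the called miRNAs were 2 without TMM factors, 15 with DESeq2 (members 1) and 14 without a filter (members 1). For induced over knockout, members called were 3 with DESeq2 size factors, 4 without TMM factors and 3 with DESeq2. The arm ratio of miR-27b between these groups was -1.67 by limma on log2 ratios with a pseudocount of 0.5 (limma adjusted p = 0.0679). With a pseudocount of 1, miR-23a-3p over miR-23b-3p was 5 in the uninduced line and 3 in the knockout. With 5p in place of 3p arms, miR-27a over miR-27b was 0.666 in the induced line, 0.692 in the uninduced line, 0.253 in the knockout lines and 0.611 in E14 wild type. The cause was not tested.

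With each library left out in turn, called miRNAs ranged from 57 to 200 for induced over uninduced (members 0 to 4), 0 to 61 for uninduced over knockout (members 0 to 2), 75 to 258 for induced over wild type (members 3 to 5) and 70 to 174 for induced over knockout (members 1 to 3). Arm ratios ranged from -0.964 to -0.669 (miR-27a) and -1.21 to -0.938 (miR-27b) for induced over uninduced, and for miR-27b from 1.07 to 1.65 for induced over wild type and -2.20 to -1.14 for induced over knockout. Ranges that crossed 0 were, for induced over uninduced, -0.102 to 0.614 (miR-23a-3p), -0.218 to 0.312 (miR-27b-3p) and -0.203 to 0.263 (miR-24-2-5p). For uninduced over knockout they were -0.337 to 0.101 (miR-27a-3p) and -0.7 to 0.152 (miR-24-3p), and for induced over wild type -0.231 to 0.491 (miR-27a-5p) and -0.484 to 0.598 (miR-27b-5p). For induced over knockout they were -0.522 to 0.161 (miR-23a-3p) and -0.663 to 0.052 (miR-27a arm ratio). A library left alone in its group is assumed to vary like the other groups.

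Depth limits miR-23b-3p most, with 3 to 5 counts in each uninduced and knockout library, and miR-24-3p, with 7 in knockout 2.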
